A study of Mus musculus with 2 samples.

Results

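The genes of the cytosolic ribosomal proteins (RP genes) were examined in open chromatin of mouse regulatory T cells. They were taken by symbol from the protein-coding genes of GENCODE M21: Rpsa, Rplp0, Rplp1, Rplp2, or Rpl or Rps followed by a number and at most 1 letter, without the kinases named Rps6k. The rule gave 80 of 21938 protein-coding genes, 31 of the small (40S) and 49 of the large (60S) subunit. Rps27l, Rpl3l, Rpl10l and Rpl39l fell just inside it. Just outside it fell coding genes with other symbols, such as Fau, Rps3a1, Rpl36al, Rpl22l1 and Rpl7l1, and Rps4l, Rpl6l, Rpl32l and Rpl37rt, which this annotation lists as pseudogenes.

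A cytosolic ribosome carries 1 copy of nearly every ribosomal protein, so cells make these proteins in matched amounts, and RP mRNAs are among the most abundant in growing cells. Mouse RP genes are short, lack a strong TATA box as a rule, and start transcription within a pyrimidine tract. The tract, called the 5′ terminal oligopyrimidine (5′ TOP) motif, places translation of the mRNA under the kinase complex mTORC1 and the RNA-binding protein LARP1. T cells raise ribosome production when they are activated, and mTORC1 signalling is known to matter for regulatory T cell function.

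Chromatin was profiled by ATAC-seq, in which the Tn5 transposase inserts adapters into accessible DNA. The cells came from an adult male mouse aged 4 months, of the strain Foxp3CreERT2 x Rosa26YFP, in which an oestrogen-receptor-fused Cre is expressed from Foxp3 and a yellow fluorescent reporter sits at Rosa26. Per the labels they are primary regulatory T cells that derive from a haematopoietic cell of bone marrow, and whether tamoxifen was given is not stated in the sources used here. The 2 libraries repeat the assay on 1 biological replicate and entered the same pooled peak lists, so there is 1 group, no spread between animals and no test.

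All values below therefore describe 1 pool. The list of peaks that passed the authors' threshold on the irreproducible discovery rate (IDR), which scores how well the order of peaks repeats between calls, held 34610 peaks. Read depth is unknown, since the lists hold no counts. A promoter peak of a gene was one that overlapped the 1000 bp on either side of any transcription start site (TSS) annotated to it. One was found at 9 of 9 markers of T cells and regulatory T cells, beside 52.6% of all protein-coding genes. The start of the transcript that the annotation ranks as principal lay in a peak at 6 of the 9. The signal, which is the enrichment that the authors give each peak, had a median of 9.50 over these markers. It ranged from 2.69 at Tnfrsf18 to 17.2 at Cd3g. The median stood at the percentile 9.05 of coding genes with a promoter peak. No promoter peak was found at any of 8 markers of B cells, CD8 T cells, myeloid cells, red cells and liver.

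The sequences that the results turn on are shown before the values. Each runs 5′ to 3′ on the strand of its gene, from 90 bases before the principal TSS to 30 bases from the TSS on, on the assembly GRCm38 (mm10). The principal TSS is the start of the transcript that the annotation ranks as principal. Capitals mark matches, on either strand, to CCGGAA (the core bound by ETS factors such as GABPA), to AANATGGC (the core bound by YY1) or to TCTCGCGA (the core of a palindrome found in promoters of housekeeping genes). The members printed were chosen after their values were seen. The palindrome set comes first because this word had the largest ratio of its share in RP genes to that in all coding promoters, and 7 members whose match falls in the printed window are shown.
Rps6 (chr4:86857383-86857502, minus strand): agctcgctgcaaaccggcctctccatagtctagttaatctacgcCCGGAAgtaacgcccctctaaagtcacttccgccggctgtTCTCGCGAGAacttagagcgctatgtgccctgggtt
Rps28 (chr17:33824533-33824652, minus strand): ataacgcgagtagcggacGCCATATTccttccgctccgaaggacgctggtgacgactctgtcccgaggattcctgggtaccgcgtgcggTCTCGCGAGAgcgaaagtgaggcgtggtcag
Rpl23a (chr11:78183555-78183674, minus strand): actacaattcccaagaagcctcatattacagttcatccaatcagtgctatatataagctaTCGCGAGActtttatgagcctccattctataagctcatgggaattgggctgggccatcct
Rpl7a (chr2:26910674-26910793, plus strand): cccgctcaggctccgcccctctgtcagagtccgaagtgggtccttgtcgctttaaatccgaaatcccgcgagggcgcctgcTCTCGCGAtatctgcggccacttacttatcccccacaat
Rpl26 (chr11:68901493-68901612, plus strand): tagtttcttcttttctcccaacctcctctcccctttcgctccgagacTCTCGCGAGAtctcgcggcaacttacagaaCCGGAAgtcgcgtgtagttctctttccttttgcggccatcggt
Rpl10a (chr17:28328478-28328597, plus strand): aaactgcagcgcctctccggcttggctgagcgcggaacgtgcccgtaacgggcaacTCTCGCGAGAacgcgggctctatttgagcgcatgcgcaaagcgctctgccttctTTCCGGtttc
Rps15a (chr7:118116159-118116278, minus strand): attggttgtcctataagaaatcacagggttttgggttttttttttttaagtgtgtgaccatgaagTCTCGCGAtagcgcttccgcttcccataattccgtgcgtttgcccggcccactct

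The capitals show that the word lies at different distances from the TSS in these 7 promoters. In Rps6, Rps28, Rpl26 and Rpl10a the match is followed by GA, so that the whole word reads the same on both strands and therefore counts as 2 overlapping matches of the shorter word. Rps6, Rpl26 and Rpl10a carry the palindrome and an ETS core.

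The next set shows the other members among the 10 of highest signal with an ETS or YY1 core in the window, together with Rps27, whose promoter carries both cores.
Rpl11 (chr4:136053364-136053483, minus strand): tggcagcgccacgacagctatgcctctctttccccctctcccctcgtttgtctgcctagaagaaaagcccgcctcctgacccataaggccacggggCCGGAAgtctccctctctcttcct
Rpl31 (chr1:39367752-39367871, plus strand): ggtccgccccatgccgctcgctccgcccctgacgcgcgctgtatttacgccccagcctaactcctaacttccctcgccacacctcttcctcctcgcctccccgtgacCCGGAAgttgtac
Rpl14 (chr9:120571354-120571473, plus strand): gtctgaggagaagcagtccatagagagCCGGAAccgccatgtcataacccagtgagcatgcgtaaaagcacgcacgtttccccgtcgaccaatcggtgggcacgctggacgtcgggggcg
Rpl34 (chr3:130730369-130730488, minus strand): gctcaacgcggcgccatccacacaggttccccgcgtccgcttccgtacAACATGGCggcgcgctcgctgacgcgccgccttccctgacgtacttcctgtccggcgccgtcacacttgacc
Rps10 (chr17:27635516-27635635, minus strand): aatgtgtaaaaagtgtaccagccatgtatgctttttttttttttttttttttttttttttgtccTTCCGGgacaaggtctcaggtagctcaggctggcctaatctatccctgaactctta
Rps27 (chr3:90213622-90213741, minus strand): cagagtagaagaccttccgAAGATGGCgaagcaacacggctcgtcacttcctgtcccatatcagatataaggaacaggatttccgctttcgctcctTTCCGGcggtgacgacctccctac

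In Rpl11 and Rpl31 the ETS core lies just downstream of the TSS, and in Rpl14 well upstream of it. The Rps10 window carries a run of thymines upstream of its ETS core. The signal that ranks Rps10, 23.8, belongs to a summit 262 bp downstream of the TSS, outside this window. Its summit at 30 bp upstream has 4.63.

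The last set places 3 broadly used genes beside paralogs that are known mainly from muscle (Rpl3l) and testis (Rpl10l and Rpl39l), because these 3 paralogs were the members without a promoter peak.
Rpl3 (chr15:80083377-80083496, minus strand): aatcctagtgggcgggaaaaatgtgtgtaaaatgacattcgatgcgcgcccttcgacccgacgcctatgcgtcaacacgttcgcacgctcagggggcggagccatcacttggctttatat
Rpl3l (chr17:24727730-24727849, plus strand): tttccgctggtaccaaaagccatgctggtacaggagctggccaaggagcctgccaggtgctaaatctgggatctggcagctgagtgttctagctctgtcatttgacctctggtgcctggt
Rpl10 (chrX:74270722-74270841, plus strand): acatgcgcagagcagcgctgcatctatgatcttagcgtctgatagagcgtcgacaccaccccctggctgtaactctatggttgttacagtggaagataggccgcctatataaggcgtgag
Rpl10l (chr12:66284372-66284491, minus strand): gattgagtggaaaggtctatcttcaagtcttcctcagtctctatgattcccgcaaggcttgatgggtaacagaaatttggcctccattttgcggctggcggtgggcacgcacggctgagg
Rpl39 (chrX:37085373-37085492, minus strand): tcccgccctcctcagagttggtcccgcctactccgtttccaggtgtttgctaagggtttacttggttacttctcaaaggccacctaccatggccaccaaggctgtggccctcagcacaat
Rpl39l (chr16:10170138-10170257, plus strand): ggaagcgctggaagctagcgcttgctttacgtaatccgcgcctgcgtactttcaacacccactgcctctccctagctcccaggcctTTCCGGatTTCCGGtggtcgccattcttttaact

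Rpl39l carries 2 ETS cores in this window and had no promoter peak, whereas Rpl3, Rpl10 and Rpl39 carry none of the 3 words in it and had one.

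Nearly every RP gene had an open promoter. A promoter peak was present at 77 of 80 members (96.25%, exact Clopper-Pearson 95% interval from 89.4% to 99.2%), at 31 of 31 genes of the small subunit and at 46 of 49 of the large subunit. Over all protein-coding genes the share was 52.6% (11537 genes). CpG-rich promoters, which are open in many cell types, were defined as those with an observed-to-expected CpG ratio of at least 0.6 and at least 50% GC between 250 bp before and 50 bp after the principal TSS. This class held 59 of the 80 members, and 57 of these had a promoter peak, beside 81.7% of all coding genes of the class. Among the 21 members outside it, 20 had a promoter peak (95.2%), beside 3657 of 12289 coding genes (29.8%). RP genes without a CpG-rich promoter thus had a peak about as often as those with one, unlike coding genes at large. This was not particular to RP genes. Of mitochondrial ribosomal protein genes, 76.9% had a CpG-rich promoter and 98.7% a promoter peak. These shares were 69.6% and 100% for ribosome biogenesis genes and 72.5% and 95% for proteasome genes. The interval covers counting error over genes only, and genes are not replicates.

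The members without a promoter peak were all l-suffixed paralogs. Rpl3l, which replaces Rpl3 in part of the ribosomes of striated muscle, lies on chromosome 17 with its principal TSS at base 24727820, and its nearest peak, of signal 5.92, lay 3214 bp from a TSS. The locus of Rpl3l, taken as the gene and 20000 bp on either side, nevertheless held 6 peaks. Rpl10l, an intronless copy of Rpl10 expressed in male germ cells, had its nearest peak 1024297 bp away, and Rpl39l had its nearest 213762 bp away. The loci of both held 0 peaks. None of the 3 had a promoter peak in the pseudoreplicated list (58871 peaks) or the ranked list (59390 peaks) either, which hold weaker peaks.

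Their parent genes were open. Rpl3 had a promoter signal of 18.9, Rpl10 of 15.1 and Rpl39 of 17.96. The parent of Rps4l, Rps4x, had a signal of 21.5. Rps27l, the paralog of Rps27 that is known as a target of p53, was the exception among the l-suffixed members and had a promoter peak of signal 18.5, beside 22.9 at Rps27. Its −log10 p was 269, beside 540 at Rps27. Without these 4 paralogs, a choice made after seeing the data, 76 of 76 members had a promoter peak.

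Peak height was then compared among the members. The signal is used here only to rank peaks within this list, and what it was computed against is not given in the sources used here. The median over the 77 members was 18.9, with quartiles of 16.8 and 22.7, and over all coding genes with a promoter peak it was 17.3, with quartiles of 13.2 and 21.7. The median member stood at the percentile 60.03 of coding genes with a peak. The signal of 52 members lay above the median of coding genes, and that of 25 above their upper quartile. RP promoters as a group thus stood moderately above the middle of open promoters, and their values lay within the range of the other genes.

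**Figure D1:**
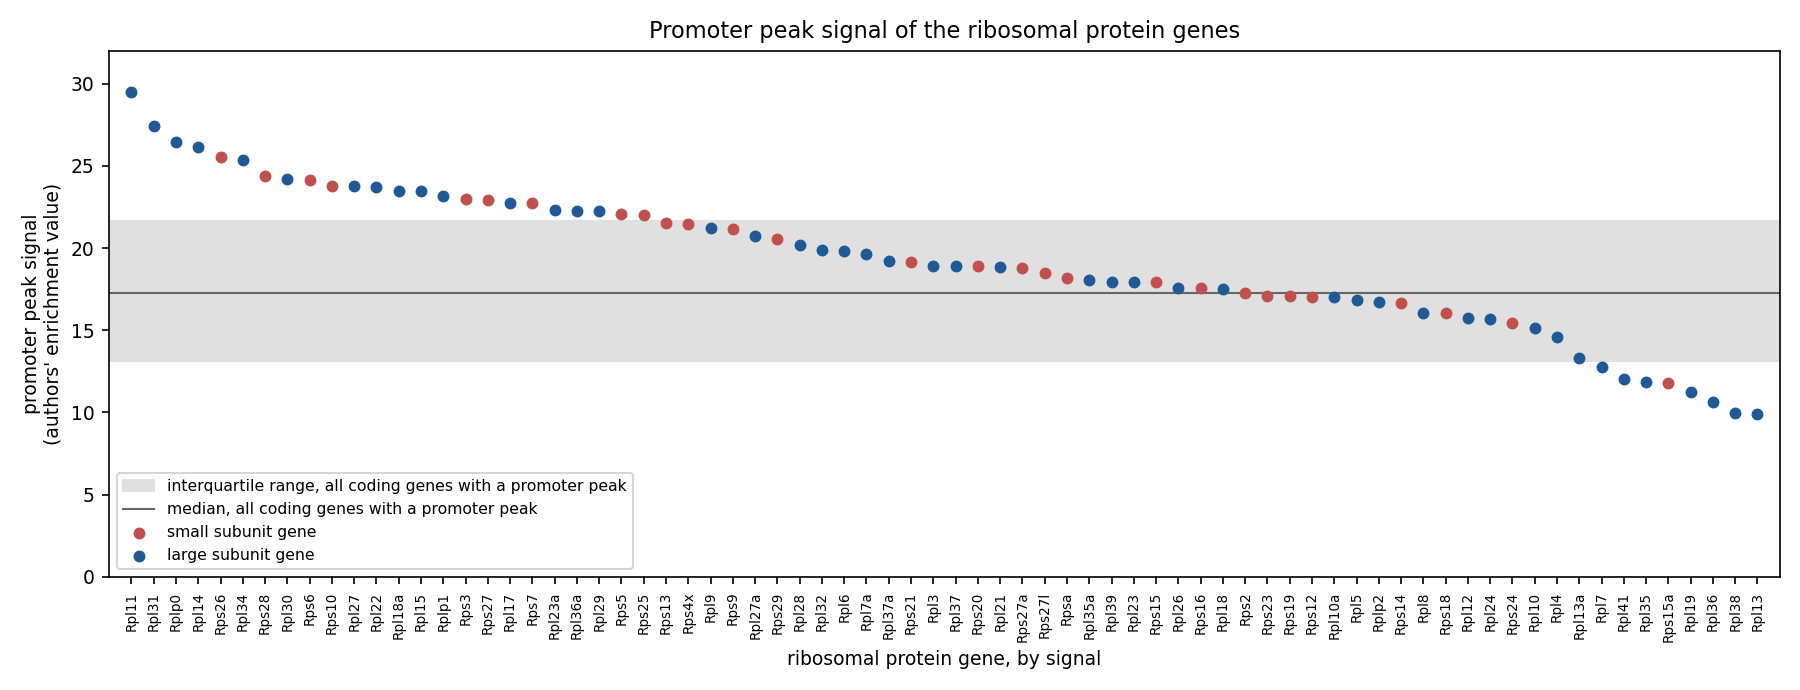
Promoter signal (y axis, the authors' enrichment value) of 74 cytosolic RP genes with a promoter peak, ordered by value, in red for the small and blue for the large subunit, with the median (line, 17.3) and interquartile range (band) of all coding genes with a promoter peak. The points drawn run from 29.5 at Rpl11 to 9.91 at Rpl13, and 50 of the 74 lie above the line.

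The second deposited measure, −log10 p, placed the members higher. Its median was 473 over the 77 members and 321 over coding genes with a promoter peak, and the median member stood at the percentile 69.9. By this measure 58 members lay above the median of coding genes and 30 above their upper quartile. Across the 77 members the rank correlation of signal and −log10 p was 0.583, and across all 11537 coding genes with a peak it was 0.618. Both values come from the same reads of each peak, and genes are not independent replicates. Some members therefore stood in different places on the 2 scales. Rpl30, a small protein of the large subunit, had a signal at the percentile 86.2 and a −log10 p of 988 at the percentile 98.1. Rps10, of the head of the small subunit, had a similar signal percentile of 84.6 but a −log10 p of 250 at the percentile 39.3.

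The highest signal belonged to Rpl11, whose protein binds MDM2 with Rpl5 and 5S RNA when ribosome assembly fails. Its peak at chr4:136052909-136053774 covered 866 bp across the principal TSS and had a signal of 29.5 and a −log10 p of 575. Rpl5, its partner in that complex, had a lower signal of 16.8 and a −log10 p of 309. Rpl31 followed Rpl11 with 27.4 from a peak of 591 bp, among the narrowest. Rplp0, the base of the ribosomal stalk, had 26.5, and Rpl14 had 26.2. Rps26, which contacts mRNA at the exit channel, had 25.5, and Rpl34 had 25.3. Rps28 had 24.4, Rpl30 24.2, Rps6 24.1 and Rps10 23.8. Neighbours in this order differ by little, and without replicates their order cannot be told from counting error.

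Rps6, the substrate of S6 kinase that is widely used as a readout of mTORC1, had the highest −log10 p of the members, 1003, in a peak of 1437 bp with 5 summits. Rpl34 had 999, Rpl30 988 and Rpl15 986. These 4 stood near the percentile 98.0 of coding genes with a peak.

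Among the lowest signals were those of Rpl13 with 9.91, Rpl38 with 9.95, Rpl36 with 10.7 and Rpl19 with 11.3. Rpl13 was also lowest by −log10 p, with 81.8 at the percentile 9.80. Rpl38, known for a skeletal patterning phenotype in mice that lack 1 copy, had a −log10 p of 122. Rpl13 and Rpl38 were thus low on both scales. Rpl36 stood higher by −log10 p, with 272 at the percentile 42.6.

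The genes of 1 substructure did not share a level. In the stalk, which recruits elongation factors, Rplp0 had 26.5 and Rplp1 23.2, whereas Rplp2 had 16.7 and Rpl12, at the base of the stalk, 15.8. The Rpl12 peak is shared with Lrsam1 and its summit lies closer to that gene, so its signal cannot be assigned to either gene. Rplp1 and Rplp2 encode the paired acidic proteins of the stalk. Small-subunit members had a median signal of 19.2 and a median −log10 p of 492, and large-subunit members had 18.9 and 439. The median signals of the subunits differed by far less than the distance between the quartiles within either.

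In a male the X chromosome is present in 1 copy, and 4 members are X-linked: Rpl10, Rpl36a, Rpl39 and Rps4x. Their signals were 15.1 at Rpl10, 22.3 at Rpl36a, 17.96 at Rpl39 and 21.5 at Rps4x, with a median of 19.7, beside a median of 18.9 for the autosomal members. Their median −log10 p was 351, beside 473 for the autosomal members. The other X-linked coding genes had a promoter peak in 348 of 944 cases (36.9%), with a median signal of 18.2 and a median −log10 p of 255. The median of the X-linked RP genes thus lay above that of the autosomal ones by signal and below it by −log10 p.

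Most RP peaks were centred close to the TSS. The principal TSS lay inside a peak at 76 of 80 members (95%), beside 45.7% of all coding genes. Most of this contrast is peak presence, since 10035 coding genes had that TSS in a peak and 11537 had a promoter peak. The share was 98.7% for mitochondrial ribosomal genes and 95.7% for ribosome biogenesis genes. The median distance from the summit of highest signal to the principal TSS was 40 bp for the 77 members and 92 bp for coding genes with a promoter peak. It was 51 bp for genes of mitochondrial ribosomal proteins and 43 bp for ribosome biogenesis genes. For coding genes the promoter peak can lie at another TSS than the principal one. With only peaks in the window of the principal TSS, the median was 40 bp for members and 77 bp for coding genes. The summit lay within 150 bp of the principal TSS in 70 of 77 members (90.9%), beside 61.8% of coding genes with a peak. That summit lay upstream in 53 members and downstream in 24. The split was similar over coding genes with a peak, with 7667 upstream and 3831 downstream.

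At 7 members the highest summit lay farther than 150 bp from the TSS. For Rpl4, Rpl32, Rps23, Rps25, Rps10 and Rpl30 the same peak held another, lower summit near the TSS. In Rpl32 the values were close, with a signal of 19.9 at 304 bp upstream and 17.3 at 12 bp upstream. In Rpl4 they were 14.6 at 471 bp upstream and 11.3 at 10 bp downstream. In Rps10 the difference was widest, with 23.8 at 262 bp downstream and 4.63 at 30 bp upstream. Rpl35 was the only member whose promoter peak did not reach its principal TSS: the peak began 106 bp downstream of that base, had its summit 446 bp downstream, and also covered the promoter window of Arpc5l, a gene of the Arp2/3 complex. Counting the nearest listed summit, 76 of 77 members (98.7%) had one within 150 bp of the TSS, beside 74.6% of coding genes with a peak.

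**Figure D2:**
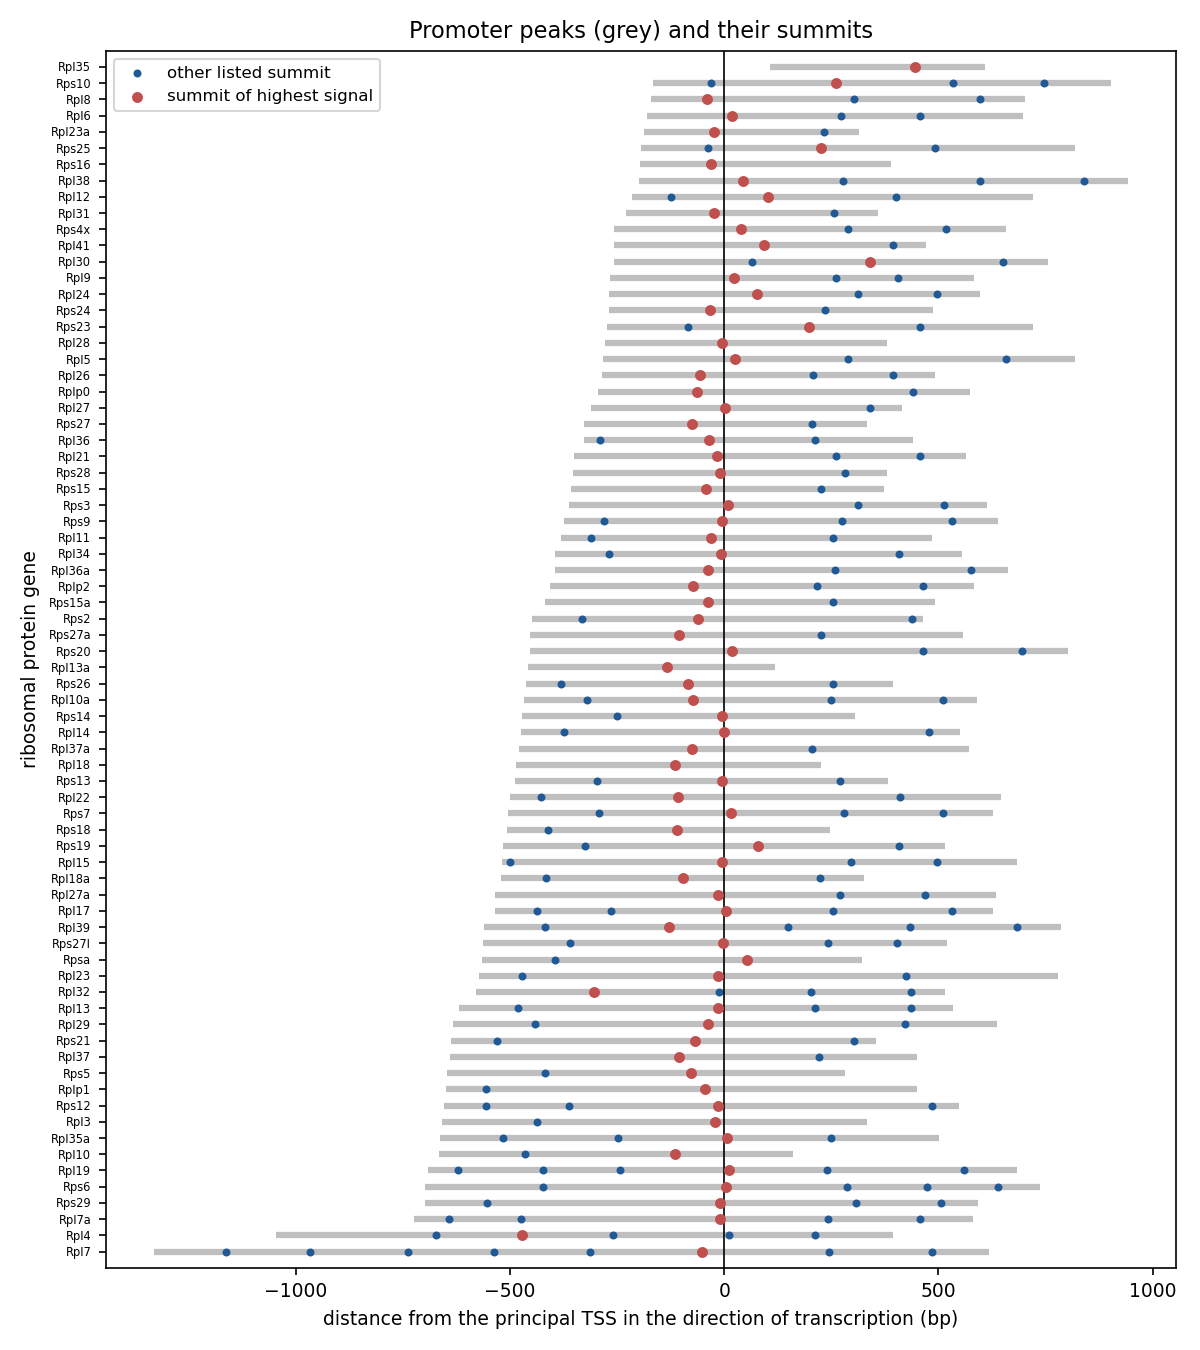
Promoter peaks of 74 RP genes, each as a grey bar along the distance from the principal TSS in bp (x axis, direction of transcription to the right), with the summit of highest signal in red and the other listed summits in blue. In the median the bars drawn reach from −456 bp to 552.5 bp, and the red point lies within 150 bp of the TSS in 67 of them.

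The peaks were as wide as those of other genes and had a similar layout. Median width was 989 bp, beside 994 bp for coding genes with a promoter peak, and signal was nearly unrelated to width over the members (rank correlation 0.0478). More than 1 summit was listed in 71 of 77 peaks (92.2%), beside 84.1% for coding genes. The 77 peaks held 229 summits, of which 152 were not the highest of their peak. These secondary summits had a median signal of 4.09. Of them, 96 lay more than 150 bp downstream of the TSS, at a median of 394 bp, and 48 lay more than 150 bp upstream, at a median position of −418.5 bp. Adjacent summits within a peak were 275.5 bp apart in the median, with quartiles of 236 and 321 bp, beside 285 bp for coding genes. Rpl7 had the widest peak, 1948 bp with 8 summits, which it shares with Rdh10.

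Several RP genes lie beside another gene in a shared open region. The promoter peak of 15 of 77 members (19.5%) was also the promoter peak of another coding gene, beside 23.0% of coding genes with a peak. The pairs were Rpl35 and Arpc5l, Rpl7 and Rdh10, Rpl4 and Zwilch, Rpl12 and Lrsam1, Rps18 and Vps52, Rpl18 and Sphk2, Rpl35a and Iqcg, and Rps27a and Clhc1. The others were Rpl7a and Med22, Rpl9 and Lias, Rps25 and Trappc4, Rps27 and Rab13, Rpl15 and Nkiras1, Rps28 and Ndufa7, and Rps10 and the read-through gene RPS10-NUDT3. The summit was closer to the other gene's TSS at 6 of them, namely Rpl4, Rpl12, Rps18, Rps25, Rps27 and Rps28, and for these the signal cannot be assigned to either gene.

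Peaks around the promoters were counted over each locus. The gene and 20000 bp on either side contained a median of 3 peaks, counting the promoter peak, with a range from 0 to 7. The median over all coding genes was 2. RP genes are shorter, with a median gene length of 3328.5 bp beside 17425 bp, so their loci cover less sequence. Rpl11, Rpl18 and Rps14 had 7 peaks each. At Rpl28, Rps16, Rpl18, Rpl13a and Rpl35, among others, the promoter peak had a single listed summit.

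The agreement of the peak calls was described from the ranked list. It held all 77 promoter peaks, with a median −log10 IDR of 3.65, beside 3.40 for coding genes with a peak. The lowest was 2.61, at Rpl13. The −log10 p values of the 2 inputs to that list differed by a median of 0.16 on the log2 scale for members and 0.17 for coding genes, and by at most 0.62 for a member. The sources used here do not say what the inputs were.

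Functionally related genes were described by the same measures. The mitochondrial ribosome has its own set of nuclear-encoded proteins, and 77 of 78 of their genes had a promoter peak, with a median signal of 19.8 and a median −log10 p of 302. Mrps25 had none, and the highest signals were 30.9 at Mrpl37, 28.6 at Mrps18a and 28.4 at Mrps22. Genes with proteasome subunit symbols, a prefix rule that also takes the recombination factor Psmc3ip, had a promoter peak at 38 of 40 genes, with a median signal of 22.4. The exceptions were Psmb11, the thymus-specific subunit, and Psma8, the testis-specific subunit. Ribosome biogenesis factors had a peak at 23 of 23 genes and a median signal of 22.9, with Utp20, a processome component, at 29.5, Rrn3, an initiation factor of RNA polymerase I, at 27.3, and Bop1 at 26.7. RP genes therefore ranked below the proteasome and biogenesis lists by median signal and above both by median −log10 p, which was 390 for the proteasome and 437 for biogenesis.

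Other 5′ TOP genes, which include elongation and initiation factors and abundant proteins such as Npm1 and Nap1l1, had a promoter peak in 16 of 16 cases with a median signal of 17.4 and a median −log10 p of 463. The highest were Eif3h with 25.7, Nap1l1 with 24.2 and Eef1g with 22.6. Genes of the mTOR pathway and of cap-dependent initiation, listed together with Myc, had one in 11 of 11 cases with a median signal of 18.985. Their median −log10 p was 264, beside 321 for coding genes with a promoter peak. By signal, Rptor, the substrate-binding subunit of mTORC1, had 29.2, Rps6kb2 had 24.3 and Tsc2 had 23.0. The lowest were Larp1 with 9.59 and Myc with 4.11. RP genes whose symbols fall outside the rule had one in 6 of 6 cases. Their signals included 24.9 at Rpl22l1, 21.996 at Rpl36al, 20.7 at Rps3a1, 20.1 at Rpl7l1 and 10.6 at Fau. Fau encodes a ribosomal protein fused to a ubiquitin-like protein.

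**Figure D3:**
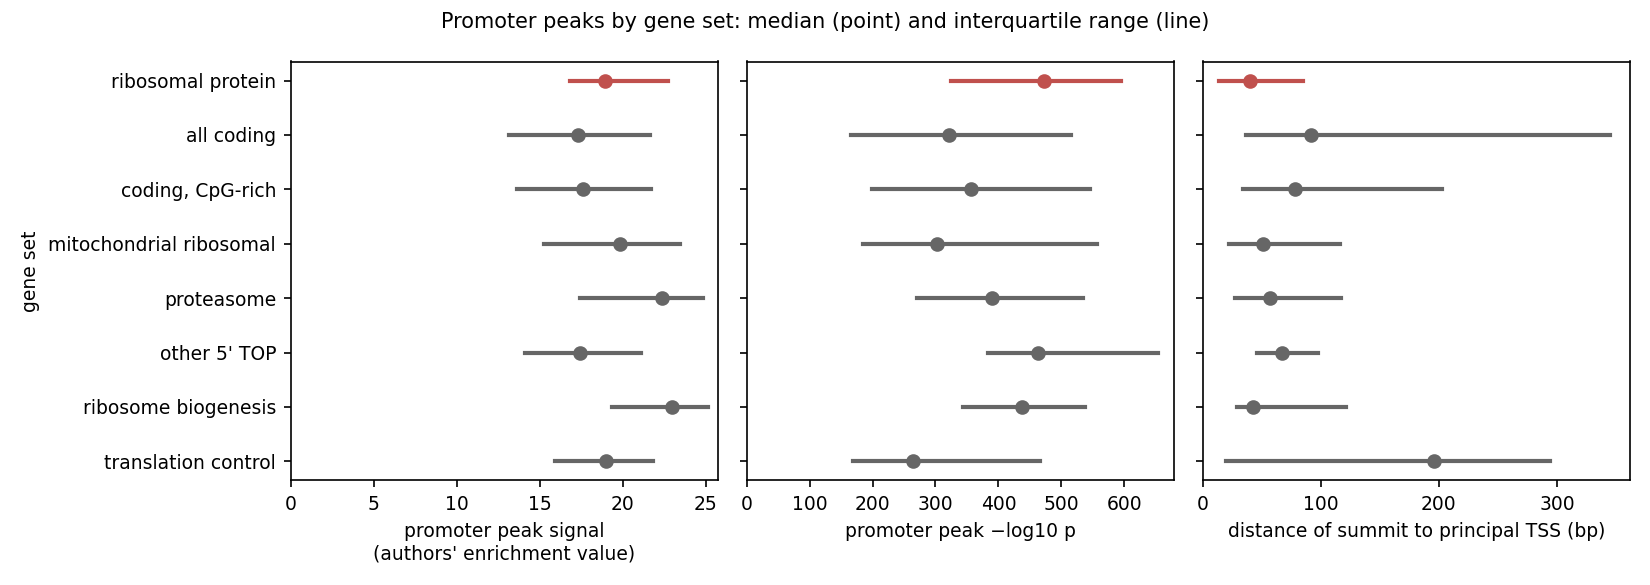
Promoter signal (left, the authors' enrichment value), −log10 p (middle) and distance of the highest summit from the principal TSS in bp (right) for RP genes (red), coding genes and related lists (grey), with the median as a point and the interquartile range as a line, over genes with a promoter peak. The RP median of 18.9 by signal lies below those of biogenesis (22.9) and proteasome genes (22.4), and its median of 473 by −log10 p lies above both.

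RP genes have many processed pseudogenes, reverse-transcribed copies that carry exons but not the promoter. The annotation names 291 pseudogenes after 59 members by the suffix -ps. A promoter peak was found at 5 of them (1.72%), beside 2.86% of all 13315 annotated pseudogenes. The copy Rpl29-ps2 had 26.5 in a peak that is also the promoter peak of Akr1e1, and Rpl34-ps1 had 19.4. Rps15a-ps5 had 17.1, Rpl38-ps1 9.18 and Rps19-ps10 3.39. The TSS of 1 of the 5 lay inside its peak. Promoter peaks were thus common at the parent genes and rare at the copies, as they were at annotated pseudogenes at large. Reads from near-identical copies can be lost where they do not map uniquely, and how the authors treated such reads is not given in the sources used here. The effect on pseudogene counts was not tested.

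Many RP genes host small nucleolar RNAs (snoRNAs), guides of rRNA modification, in their introns. A snoRNA lay within 29 of 80 members (36.25%), 56 snoRNAs in all, beside 259 coding genes in total (1.18%). Rpl4 holds 5 and Rpl13a holds 4. The median promoter signal was 18.8 for the 29 hosts and 20.4 for the 48 other members with a peak, and the median −log10 p was 398 beside 478. The hosts thus had the lower medians on both scales, and their ranges overlapped with those of the others.

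Sequence words in RP promoters were counted between 250 bp before and 50 bp after the principal TSS on both strands. A match is a description and not evidence that a factor binds. CCGGAA was present in 36 of 80 members (45%), beside 18.1% of all coding promoters, 29.2% of those with a promoter peak and 35.0% of those with a peak and a CpG-rich promoter. The share was 55.1% in mitochondrial ribosomal promoters, 45% in proteasome promoters and 52.2% in biogenesis promoters. It was 31.25% in other 5′ TOP promoters (5 of 16). The ETS core was thus at least as frequent in the first 3 of these lists as in RP genes and less frequent in the last. With the longer word ACCGGAAG the share of members fell to 11.25%, beside 2.87% of coding promoters. Members with the core had a median signal of 19.2 and those without it 18.8. Over coding genes with a peak these medians were 19.1 and 16.6.

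TCTCGCGA showed the largest ratio to the background of the words searched. It was present in 13 of 80 members (16.25%), beside 1.38% of all coding promoters, 2.37% of those with a peak and 3.13% of those with a peak and a CpG-rich promoter. Of these, 7 belong to the large subunit, namely Rpl4, Rpl7a, Rpl10a, Rpl17, Rpl23a, Rpl26 and Rpl27a, and 6 to the small subunit, among them Rps6, Rps15a, Rps19 and Rps28. They made up 13 of the 303 coding promoters that hold the word. The share was 2.56% in mitochondrial ribosomal, 5.00% in proteasome and 13.0% in biogenesis promoters, the last from 3 of 23 genes, and 0 of 16 other 5′ TOP genes held it. The full palindrome, with GA after the core, a choice made after seeing the data, was present in 7 members (8.75%), beside 0.606% of coding promoters.

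The matches of the palindrome lay close to the start. Counting overlapping matches on both strands, 14 of 20 lay within 100 bp upstream of the TSS, with a median position of −27.5 bp, and 3 lay downstream. In coding promoters with a peak, 57.0% of the matches lay within those 100 bp. Members with the word had a median signal of 19.6, with 11.8 at Rps15a and 24.1 at Rps6 as examples, and members without it 18.9. Their median −log10 p was 353, beside 479 without it. Over coding genes with a peak the order was the other way, 451 with the word and 318 without it. Palindrome-bearing members thus included promoters of low and of high signal, as the printed promoters of Rps15a and Rps6 illustrate.

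AANATGGC was present in 10 members (12.5%), beside 6.37% of coding promoters and 8.94% of those with a peak. Among coding promoters with a peak and a CpG-rich promoter the share was 10.2%. It was 20.5% in mitochondrial ribosomal, 22.5% in proteasome, 13.0% in biogenesis and 25% in other 5′ TOP promoters (4 of 16). The word was thus at least as frequent in these lists as in RP genes. A longer YY1 consensus was present in 0 members and in 0.875% of coding promoters. Members with AANATGGC had a median signal of 17.8 and those without it 19.2. Over coding genes with a peak the order was the other way, 18.8 with the word and 17.2 without it. The ETS core and this word occurred together in 2 members (2.5%), Rpl10 and Rps27, beside 3.06% of coding promoters with a peak. At least 1 of CCGGAA, AANATGGC and TCTCGCGA was present in 48 members (60%), beside 36.3% of coding promoters with a peak, and 32 members had none of them. Of the 13 palindrome-bearing members, 6 also had the ETS core and 3 also AANATGGC. Among coding promoters with a peak, 273 held the palindrome, and of these 106 had the ETS core and 36 AANATGGC.

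**Figure D4:**
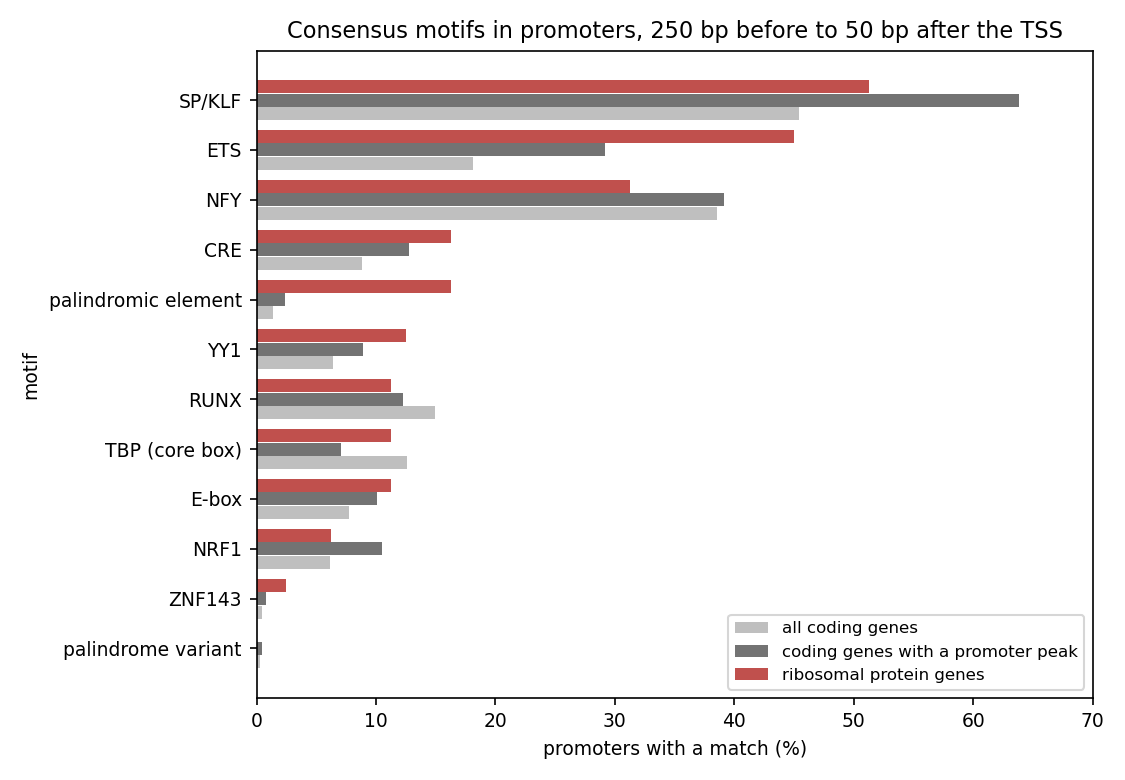
Share of promoters with each sequence word (x axis, percent) between 250 bp before and 50 bp after the principal TSS, for the 80 RP genes (red), coding genes with a promoter peak (dark grey) and all coding genes (light grey). The palindromic element, TCTCGCGA, stands at 16.25% in RP genes and 1.38% in all coding genes, and the ETS core at 45% and 18.1%; the palindrome variant is TGTCGCGA and the TBP box TATAAA.

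Some of the remaining words were less frequent in RP genes than in open promoters and others more frequent. GGGCGG, bound by SP and KLF factors, was present in 51.25% of members, 63.8% of coding promoters with a peak and 45.4% of all coding promoters, so members lay between the backgrounds. CCAAT, bound by NFY, was present in 31.25% of members and 39.1% of open coding promoters. The NRF1 motif was present in 6.25% of members, 10.5% of open and 6.12% of all coding promoters. The E-box CACGTG, bound by MYC and related factors, was present in 11.25% of members and 10.05% of open coding promoters, whereas biogenesis promoters held it in 39.1% of cases. TATAAA was present in 11.25% of members, 7.06% of open and 12.6% of all coding promoters. Of its 10 matches in members, 6 (60%) lay downstream of the principal TSS, beside 9.90% of its 919 matches in open coding promoters. TGTGGT, bound by RUNX factors, was present in 11.25% of members and 12.2% of open coding promoters, and TGACGT, the CRE core, in 16.25% and 12.8%. The ZNF143 motif was present in 2 members, Rpl23a and Rps27a, and in 0.763% of open coding promoters, and TGTCGCGA in 0 members and 0.468% of open coding promoters.

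**Figure D5:**
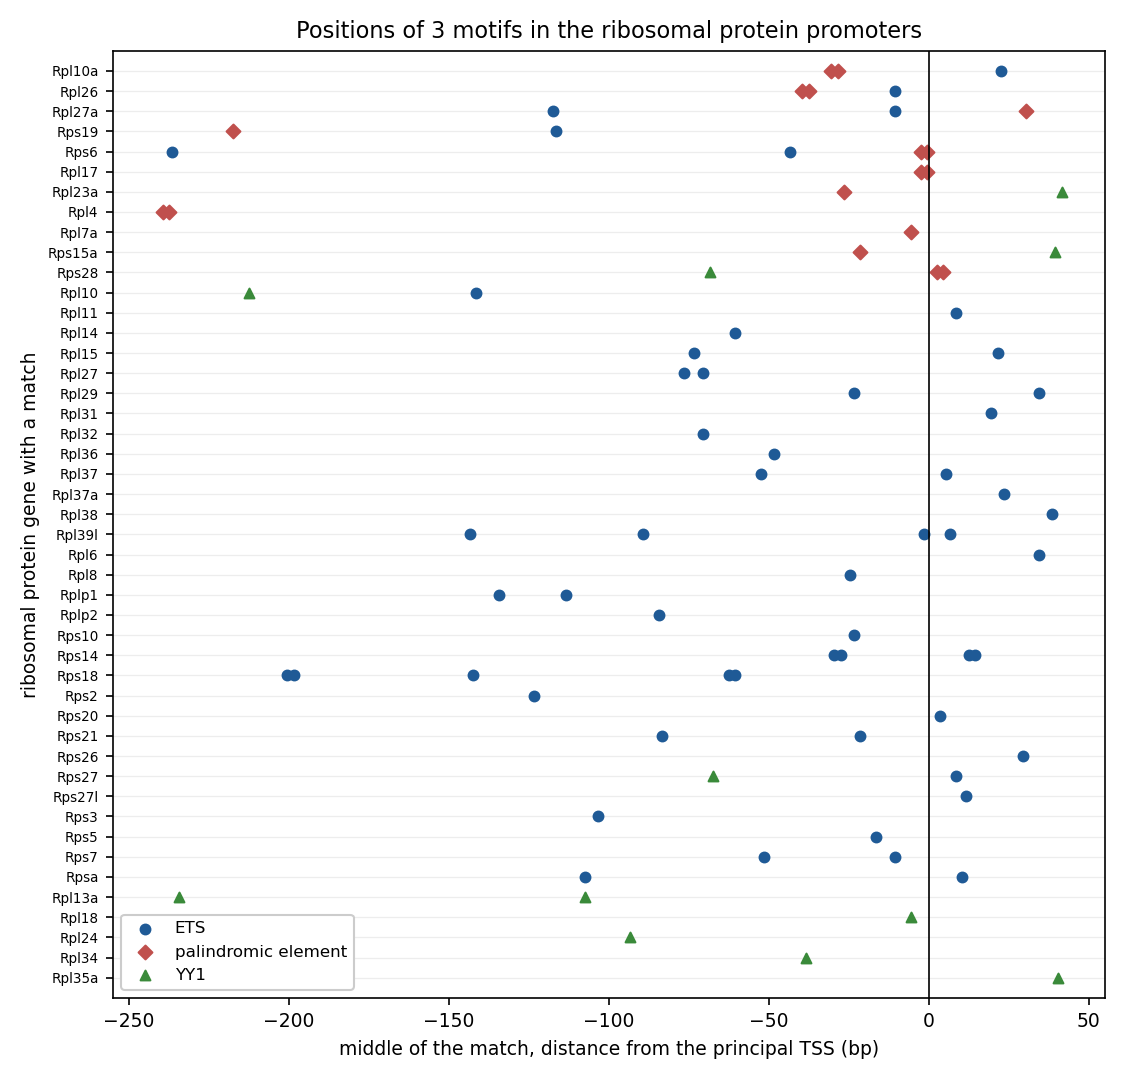
Position of each match of the ETS core (blue circles), the palindrome (red diamonds) and the YY1 core (green triangles) in RP promoters (x axis, middle of the match in bp from the principal TSS, negative upstream), a line per gene. The palindrome matches drawn have their median at −21.5 bp with 11 of 17 within 100 bp upstream, and the 55 matches of the ETS core drawn have theirs at −29.5 bp with 17 downstream.

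The 5′ TOP tract was searched at the annotated starts, since it defines how RP mRNAs are translated. A run of at least 5 pyrimidines that begins with C at the principal TSS was present in 8 of 80 members (10%), beside 2.27% of coding genes, with the longest runs at Rps24 (17 bases) and Rpl32 (14 bases). Within 10 bp of that base it was present in 37 members (46.25%), beside 30.8%. At the starts given by RefSeq, which covered 60 of the members, the tract was present in 13 (21.7%), beside 448 of 16522 coding genes (2.71%). At these RefSeq starts the longest runs were 13 bases at Rpl15, 11 at Rpl35 and 10 at Rps10. Annotated starts of RP genes can lie several bases from the main initiation site, and ATAC-seq does not map that site, so these shares describe the annotations.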

How the data were processed

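ATAC-seq peak lists of 2 libraries, technical replicates of 1 biological replicate, were used. Per the file listings, the 3 deposited lists come from the pooled reads on mm10. The sources used here name no aligner or peak caller and do not say how multiply mapped reads were handled. Each line of the lists gives a signal value of enrichment, deposited by the authors, and a −log10 p, also deposited by the authors. Column meanings follow the narrowPeak format. The ranked list adds 3 score columns deposited by the authors: the −log10 IDR and, for either input, the −log10 p that ranked the peak.

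Lines with the same interval were merged, and the merged peak took the values of its highest summit. Peaks were joined to GENCODE M21 on GRCm38, which is the assembly mm10. Where several peaks fell in the window of a gene, that of highest signal was taken. Summit distances follow the direction of transcription. Words were searched with pysam 0.24.0 and pandas 2.3.3 under Python 3.11.15, and intervals came from scipy 1.17.1. RefSeq promoter sequences matched 60 of 80 members by symbol. Sequences printed were read from the GRCm38 assembly.

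Members without a promoter peak, the 10 of highest and 5 of lowest signal, stalk genes, paralog pairs and X-linked members are named in full, and from other lists the 3 genes of highest signal and those without a peak. Any further gene was picked with its values known. A few genes that these choices select are not reported here and not drawn in the plots by gene. The members, lists and words were chosen with earlier results of these data known. Functions were tested on simulated data. Depth is unknown, no column was left unassigned, and p-values were not computed, since genes are no replicates.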

Additional observations from a re-analysis of the deposited data

How the results depend on the processing

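Of 67 alternatives over 9 results, 55 left a value inside its 95% interval over genes and 12 placed it outside. Some could hardly move a value. The pseudoreplicated list, the 500 bp window, the principal TSS alone and the nearest peak left the members' median signal at 18.93. The count of 55 is therefore not a measure of stability. Using only peaks whose signal reached the list's median (13.23), the share of RP genes with a promoter peak was 85.0%, beside 39.2% of coding genes, and the share with the principal TSS in a peak was also 85.0%. Not counting peaks closer to another gene gave a share of 88.75%, beside 46.6% of coding genes. Leaving out the listed paralogs, an alternative chosen after seeing the data, gave 100%. The median number of peaks per locus, 3 as reported, was 2.0 with that restriction, 2.0 when it was put on −log10 p (median 115.1), 2.0 with a flank of 5000 bp and 5.5 with one of 50000 bp. The ETS core was present in 58.75% of members between 500 bp before and 100 bp after the TSS, beside 24.5% of coding genes, and the longer word in 11.25%. The longer YY1 word was present in 0.0% and the longer palindrome in 8.75%, the latter chosen after seeing the data. No paired analysis was possible because both libraries entered 1 pooled peak list of 1 group, and for the same reason no replicate could be left out.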
